A study of Mus musculus with 4 samples.

Results

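The response to periostin was examined across both subsets of periosteal macrophages at once, by setting the 2 periostin-treated libraries against the 2 vehicle-treated libraries with the subset as a block. Of 17532 genes in the tables of either subset, 14398 were in both, and the 13129 of these that reached 1 CPM in the higher library of each subset were compared. Wild-type male C57BL/6 mice at postnatal day 28 gave the cells, which were sorted from periosteum, the membrane around bone, as CD45+CX3CR1+ACE+ or CD45+CX3CR1+CD74+ cells. All 4 cultures were kept in DMEM with 10% serum and M-CSF at 10 ng/ml, a growth factor that macrophages need, and were exposed for 24 h to 500 ng/ml of recombinant mouse periostin or to PBS alone, the vehicle. Each of the 4 groups was 1 library. Recovered reads were 15471245 and 19798150 in ACE+ cells without and with periostin, and 16650349 and 11846312 in CD74+ cells. The sources used here do not give the number of animals behind a library.

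Periostin, encoded by Postn, is a secreted matricellular protein of periosteum, tendon and other collagen-rich tissue. It binds integrins on the cell surface and brings collagen and lysyl oxidase activity together in the matrix. Macrophages meet it as a ligand in the matrix around them, and integrin binding is known to act on adhesion, migration and gene expression.

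Levels are scaled counts per 1000000 (CPM), on the common scale the authors gave the 4 libraries. A change within a subset is log2 of the periostin level plus 1 CPM over the vehicle level plus 1 CPM, and the pooled change is the mean of both subsets' changes. The sort and ligand genes are given first. Wherever 4 levels follow each other, the first pair is ACE+ cells and the second pair CD74+ cells, with vehicle before periostin in each pair. Ptprc, which encodes CD45, was at 618, 560, 458 and 363 CPM. Cx3cr1 was at 16.9, 21.7, 18.2 and 14.5 CPM, and its change had opposite signs in the subsets. Ace was at 2.76, 2.80, 0.897 and 9.51 CPM, so the library with the highest level was CD74+ periostin and not an ACE+ one. Cd74 was at 532, 552, 850 and 1222 CPM, abundant in every library. Postn itself was at 27.2, 28.4, 12.1 and 10.7 CPM, with a pooled log2 change of -0.05. Markers of other cells were also present: the 15 neutrophil markers tested summed to 24650, 29610, 13460 and 21380 CPM, and the 24 core macrophage genes to 8605, 9311, 8499 and 8892 CPM. In these bulk libraries, fewer cells of a type and less RNA per cell cannot be told apart.

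The subsets' responses had little in common across genes. Both changes had the same sign in 7038 of 13129 genes, 53.6%, of which 3531 were higher (26.9% of all genes) and 3507 lower (26.7%). The changes of the 2 subsets correlated at a Pearson r of 0.059 and a Spearman rho of 0.086 over these 13129 genes, which share the libraries and their depth. The spread of changes was wider in CD74+ cells, with an SD of 0.623 on the log2 scale against 0.351 in ACE+ cells, and 3751 genes (28.6%) moved at least 1.5-fold there against 1151 (8.77%) in ACE+ cells. The CD74+ periostin library was the shallowest, with a median of 222 reads per gene against 353 to 448.5 in the others, and its part in the wider spread was not tested.

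**Figure D1:**
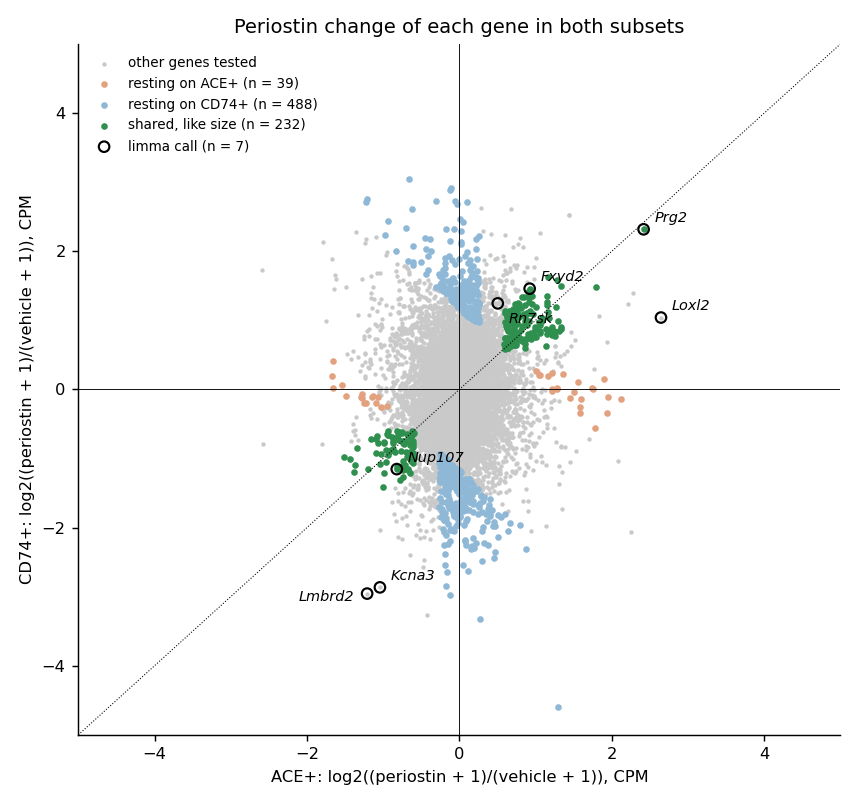
Each point is 1 of 13129 genes, with its log2 change under periostin in ACE+ cells on the x axis and in CD74+ cells on the y axis; the dotted line marks equal changes. The cloud is taller than wide (SD 0.623 against 0.351), and the 232 shared genes and the 7 called genes lie in the 2 quadrants of like sign, with Rn7sk at the edge of the cloud.

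The pooled test called 7 genes. Prg2, Fxyd2, Loxl2 and Rn7sk rose, and Kcna3, Lmbrd2 and Nup107 fell in both subsets. These were 4 genes higher and 3 lower, 0.0305% and 0.0229% of the genes tested, or 0.0533% together, at an adjusted p of at most 0.05 in limma with Benjamini-Hochberg adjustment over all 13129 genes. With 1 library per group, the difference between the subsets' responses was the only error in this fit. It left 1 residual degree of freedom against 62.9 borrowed from the other genes, so a call rests mostly on the spread of the other genes. An unadjusted p of at most 0.05 was reached by 896 genes, 6.82%, and a two-sided exact permutation test over 2 pairs cannot go below 0.5.

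Among the genes that rose, the largest and most even change was that of Prg2, on chromosome 2, which encodes eosinophil major basic protein. Its level was 2.38 CPM in ACE+ vehicle and 17.1 CPM in ACE+ periostin, and 1.79 CPM in CD74+ vehicle and 12.9 CPM in CD74+ periostin. Both periostin libraries lay above both vehicle libraries. The ratio was 7.16 in ACE+ cells, with a 95% counting interval of 5.12 to 10.3, and 7.202 in CD74+ cells, with an interval of 4.83 to 11.1. These intervals are exact, come from 30 to 348 reads per library and cover counting error only. The pooled log2 change was 2.37 ± 0.43 (SE), with an adjusted p of 0.00914 in limma, 0.000455 in edgeR and 0.00204 in DESeq2.

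Other genes of eosinophils, basophils and mast cells were mixed, and 8 of their markers were tested. Prss34, a basophil serine protease, was at 1.44, 4.96, 2.03 and 8.07 CPM, a like change in both subsets that missed the test (adjusted p 0.419, limma). Ear2, an eosinophil ribonuclease, was at 1.32, 4.37, 1.08 and 1.44 CPM, higher mainly in ACE+ cells. Prg3, the paralog of Prg2, was at 0.188, 2.11, 1.26 and 0.269 CPM, higher in one subset and lower in the other. Kit, the stem cell factor receptor of mast cells, was at 33.4, 35.6, 90.4 and 49.0 CPM. The 8 markers summed to 173, 188, 153 and 150.4 CPM, most of it from Kit and the transcription factors Gata1 and Gata2. The other 5, a split that is not part of the list, summed to 7.53, 30.6, 7.47 and 26.01 CPM. Prg2 itself made up 2.38, 17.1, 1.79 and 12.9 CPM of these sums. Of the 8, 4 were higher in both subsets and 0 lower in both. Of the markers below the filter, Ms4a2 and Ear6 are given, named after their values were seen, and the others are not. Ms4a2, a chain of the high-affinity IgE receptor, had 2 and 25 reads in the ACE+ pair and 0 and 15 in the CD74+ pair. Ear6, another eosinophil ribonuclease, had 12 and 19 and then 7 and 51. All 13 markers in either table, tested or not, summed to 176, 193, 154 and 157.5 CPM. Epx, Siglecf and Fcer1a were not analysed here. The part of these cells in the Prg2 result was not tested.

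Fxyd2, a small regulatory subunit of the sodium pump, rose from 21.9 to 42.5 CPM in ACE+ cells and from 48.1 to 134 CPM in CD74+ cells. Its ranges overlapped between treatments, since ACE+ periostin lay below CD74+ vehicle, but each subset moved up. The log2 changes were 0.92 and 1.46, within 1.5-fold of each other, and the pooled change was 1.19 ± 0.22 (SE; adjusted p 0.00914, limma). Its counting intervals, 1.71 to 2.20 in ACE+ cells and 2.55 to 3.04 in CD74+ cells, did not overlap.

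Loxl2, a lysyl oxidase that cross-links collagen and elastin, rose in both subsets by unequal amounts. It was at 1.63, 15.5, 11.2 and 24.0 CPM, with a log2 change of 2.65 in ACE+ cells and 1.04 in CD74+ cells. Both periostin libraries lay above both vehicle libraries. The pooled change of 1.84 ± 0.40 (SE) had an adjusted p of 0.0387 (limma).

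Rn7sk, the 7SK RNA that holds the elongation factor P-TEFb in an inactive complex, was at 50.4, 71.8, 230 and 546 CPM. The change was 0.50 in ACE+ cells and 1.24 in CD74+ cells, so it was past 1.5-fold in CD74+ cells alone. The pooled change was 0.87 ± 0.18 (SE; adjusted p 0.0384, limma).

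Of the called genes that fell, Nup107 was the one with changes within 1.5-fold of each other in the subsets. Nup107, a scaffold subunit of the nuclear pore, was at 92.5, 51.9, 67.1 and 29.6 CPM, and both periostin libraries lay below both vehicle libraries. Its log2 changes were -0.82 and -1.15, and the pooled change was -0.99 ± 0.21 (SE; adjusted p 0.0387, limma).

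Kcna3, the voltage-gated potassium channel Kv1.3 of lymphocytes and macrophages, was at 31.5, 14.8, 19.4 and 1.79 CPM. The periostin libraries were again the lower ones, with a log2 change of -1.04 in ACE+ cells and -2.87 in CD74+ cells. The vehicle level was 2.13 times the periostin level in ACE+ cells and 10.8 times in CD74+ cells, with counting intervals of 1.84 to 2.47 and 6.88 to 17.9. The pooled change was -1.95 ± 0.38 (SE; adjusted p 0.0121, limma).

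Lmbrd2, a multi-pass membrane protein gene, was at 10.3, 3.88, 16.5 and 1.26 CPM. Its log2 change was -1.21 in ACE+ cells and -2.96 in CD74+ cells, where 14 reads remained under periostin. The pooled change of -2.08 ± 0.45 (SE) had an adjusted p of 0.0387 (limma).

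The calls depended on the fit. Prg2 was called under 10 of the 13 other settings and Lmbrd2 under 5, edgeR on the recovered reads called 14 genes (0.107% of those tested) including all 7, and DESeq2 called 2 (0.0152%), Prg2 and Fxyd2. Limma called 0 genes with no block for subset, with no filter and with no trend in its prior, where 83, 980 and 666 genes had an unadjusted p of at most 0.05. Only 3 of the 7 called genes, Prg2, Fxyd2 and Nup107, had changes within 1.5-fold of each other in the subsets.

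**Figure D2:**
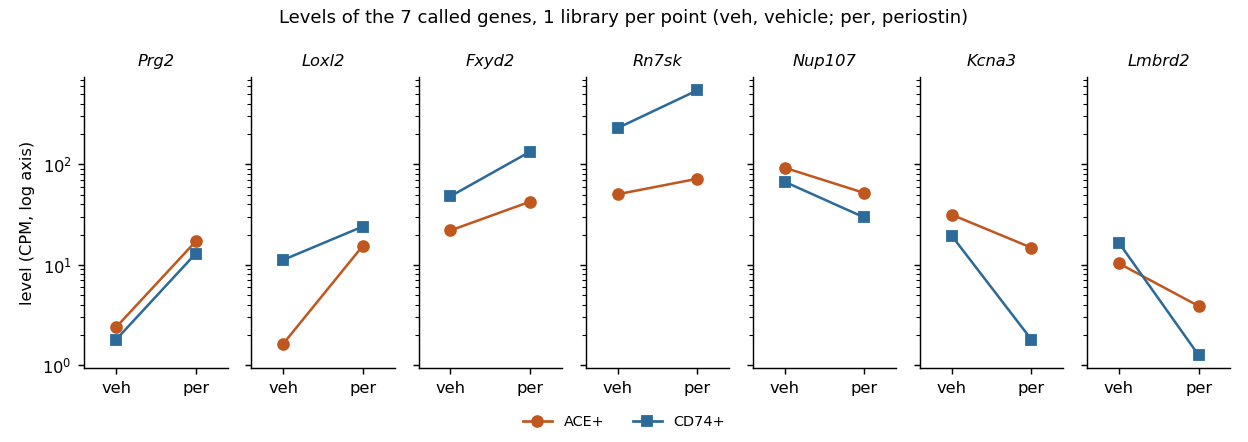
Levels of the 7 called genes in CPM on a log axis, with 1 point per library and a line from vehicle to periostin for each subset (circles ACE+, squares CD74+). The lines are nearly parallel for Prg2 (7.16-fold and 7.202-fold), steeper in ACE+ cells for Loxl2, and steeper in CD74+ cells for Rn7sk, Kcna3 and Lmbrd2.

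Promoter windows were available for 3 of the 7 called genes, those that fell, and these windows are shown. Each runs from 250 bases before to 50 after the RefSeq start, 5′ to 3′ on the gene's strand in GRCm38.p6. Capitals mark matches on either strand to 4 motifs, of which overlaps were allowed: the ETS site CCGGAAG, the GC box GGGCGG, the CCAAT box CCAAT and the AP-1 site TGANTCA.
Nup107, chr10:117792656-117792955, minus strand: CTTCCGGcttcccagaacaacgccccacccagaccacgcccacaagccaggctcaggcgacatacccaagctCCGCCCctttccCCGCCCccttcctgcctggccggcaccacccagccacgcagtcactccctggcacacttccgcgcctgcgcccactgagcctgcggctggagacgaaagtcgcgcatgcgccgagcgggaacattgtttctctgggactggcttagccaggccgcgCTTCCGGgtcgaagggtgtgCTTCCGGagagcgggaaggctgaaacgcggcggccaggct
Kcna3, chr3:107035912-107036211, plus strand: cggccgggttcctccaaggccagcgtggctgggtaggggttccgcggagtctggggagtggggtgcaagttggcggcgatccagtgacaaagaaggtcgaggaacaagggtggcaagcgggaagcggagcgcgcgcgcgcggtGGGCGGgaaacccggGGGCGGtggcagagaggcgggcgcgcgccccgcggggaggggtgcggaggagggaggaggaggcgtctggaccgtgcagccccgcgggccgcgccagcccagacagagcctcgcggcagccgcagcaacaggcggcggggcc
Lmbrd2, chr15:9140320-9140619, plus strand: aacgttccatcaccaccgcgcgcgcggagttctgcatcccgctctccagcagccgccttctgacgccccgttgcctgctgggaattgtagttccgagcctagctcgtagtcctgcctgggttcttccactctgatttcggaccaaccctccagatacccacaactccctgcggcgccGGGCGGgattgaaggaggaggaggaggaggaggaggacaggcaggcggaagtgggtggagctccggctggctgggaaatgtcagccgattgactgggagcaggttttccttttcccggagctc
The window of Nup107 held 3 ETS matches and 2 GC boxes, that of Kcna3 held 2 GC boxes and that of Lmbrd2 held 1. Over all 32851 windows of this length, the ETS site was in 8.86%, the GC box in 35.7%, the CCAAT box in 37.4% and the AP-1 site in 7.81%. The GC box was the motif common to the 3 windows, and its part in the changes of these genes was not tested.

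Beyond the calls, genes were described as shared where both changes had one sign, each was at least 1.5-fold and the folds were within 1.5 times of each other. There were 232 such genes, 1.77% of those tested, with 148 higher (1.13%) and 84 lower (0.64%). A like number, 205, moved by like size in opposite ways, and at 1.5-fold with no limit on the gap 315 genes moved the same way and 269 opposite ways. At 5 CPM or more in the higher library of each subset, the counts were 89 shared genes, 48 higher and 41 lower, against 81 of like size in opposite ways. All these counts leave out genes in 1 table only. Of those that passed the 1 CPM filter, 7 were shared higher and 46 shared lower. At the edge of the rule, Rdh14 (log2 changes 0.59 and 0.59) was inside and Atoh8 (0.57 and 0.66) outside among higher genes, and Bcap29 (-0.60 and -0.998) inside and Yae1d1 (-0.58 and -0.78) outside among lower ones. The counting interval excluded a ratio of 1 in both subsets for each of the 48 and 41 genes. The intervals of the subsets overlapped for 47 of the 48 and 38 of the 41. As the genes were picked by size from the same reads, the rule largely fixed both outcomes, and they add no support.

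The shared higher genes with the largest change in the weaker subset were Prg2, Rny1, Mpp4, Adam11, Cables1, Fxyd2, Cxcr3, Rpph1, Col9a1 and Pms2. Apart from Prg2 and Fxyd2, none of these passed the limma test, with adjusted p from 0.160 for Rny1 to 0.706 for Col9a1. Rny1, a Y RNA, a small RNA that binds the Ro60 protein, was at 4.14, 16.7, 2.81 and 9.69 CPM. Its ratio was 4.04 in ACE+ cells and 3.45 in CD74+ cells, with counting intervals of 3.10 to 5.34 and 2.43 to 4.96. Its GENCODE transcript on GRCm38 is shown since it was the shared short RNA with the largest change.
Rny1, chr6:47788069-47788180, minus strand: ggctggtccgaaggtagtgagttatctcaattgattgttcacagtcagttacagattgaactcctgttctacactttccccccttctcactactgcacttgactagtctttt
Rpph1, the RNA of RNase P, was at 8.47, 16.8, 33.5 and 73.1 CPM, with 73.0% of its exon bases overlapping another gene, so its reads cannot be separated fully from that gene.

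Among the protein-coding members below the calls, Cxcr3, the receptor for Cxcl9 and Cxcl10, was at 3.83, 8.14, 2.39 and 6.46 CPM. Adam11, a catalytically inactive ADAM protein of neurons, was at 7.46, 16.9, 4.13 and 9.15 CPM. Mpp4, a synaptic scaffold of photoreceptors, was at 3.89, 9.86, 7.35 and 19.1 CPM. Every one of these levels was higher with periostin than with vehicle in its subset, by 2.13-fold to 2.70-fold for Cxcr3.

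Pms2, a mismatch repair protein, was at 5.90, 12.8, 7.47 and 14.3 CPM, and both periostin libraries lay above both vehicle libraries. Col9a1, a cartilage collagen chain, was at 2.64, 5.69, 6.58 and 13.5 CPM, with a higher level in CD74+ cells throughout. Cables1, a substrate of Cdk5 and Abl, was at 2.19, 5.397, 3.83 and 10.1 CPM, with 34.2% of its exon bases in another gene.

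The shared lower genes chosen in the same way were Cdh1, Phka1, Fam120c, Pth1r, Glmn, Unkl, Hbb-y, Hint3, Nup107 and Uevld, and Nup107 alone of these passed the test. Cdh1, which encodes E-cadherin, was at 5.14, 1.67, 5.02 and 1.70 CPM, nearly the same in both subsets. Pth1r, the receptor for parathyroid hormone that marks osteoblast-lineage cells, was at 9.03, 3.93, 10.5 and 5.02 CPM. Phka1, the alpha subunit of phosphorylase kinase, was at 18.6, 8.83, 15.2 and 6.01 CPM. In each of these genes both periostin libraries lay below both vehicle libraries. Hbb-y, an embryonic beta-like globin, was at 28.6, 10.6, 30.3 and 16.3 CPM, and as a member of a family of close copies its count is uncertain. The adjusted p of these genes other than Nup107 was 0.241 to 0.742 (limma).

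**Figure D3:**
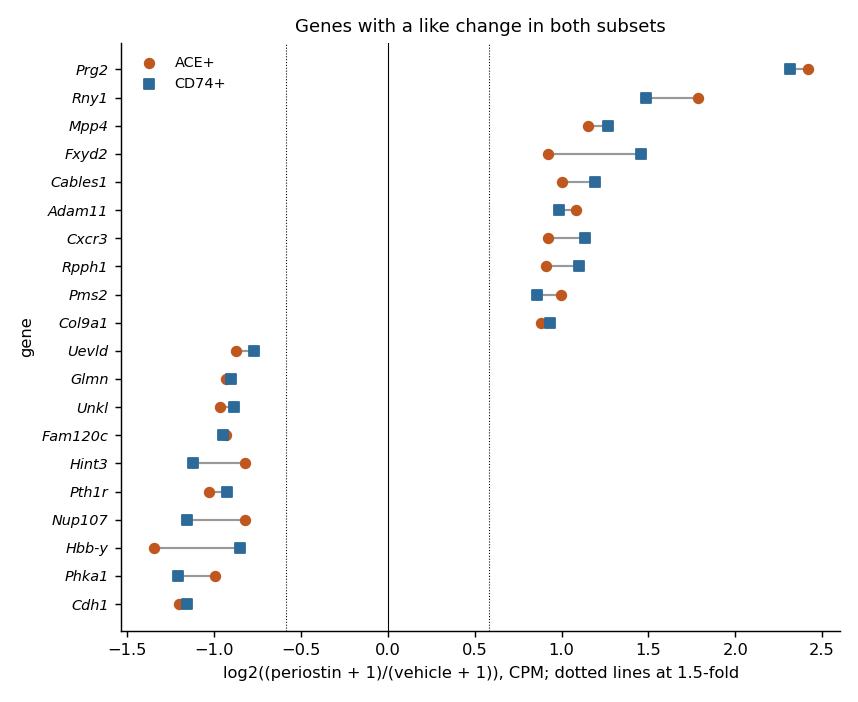
Log2 change under periostin in ACE+ cells (circles) and CD74+ cells (squares) for the 20 shared genes named by rule, ordered by pooled change; dotted lines mark 1.5-fold. Both symbols of each gene lie past the same dotted line, with the widest gaps for Fxyd2 (0.92 and 1.46) and Hbb-y (-1.35 and -0.85).

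Genes with many reads were few among those shared. Of 4915 genes that reached 40 CPM in both subsets, a limit chosen after the values were seen, 8 were shared, 7 of them lower. Besides Nup107 and Fxyd2 these were Mmgt1, Phip, Arhgef12, Sh3bgrl2, Lnpep and Eif2s3x. Phip, a chromatin-associated protein that binds IRS1, was at 183, 119, 144 and 75.4 CPM (pooled -0.77 ± 0.18, SE; adjusted p 0.105, limma). Arhgef12, an exchange factor for RhoA, was at 142, 81.1, 68.0 and 40.6 CPM (pooled -0.76 ± 0.20, SE; adjusted p 0.160, limma). Lnpep, a membrane aminopeptidase, was at 112, 72.9, 85.4 and 54.0 CPM, with changes of -0.61 and -0.65. Thbs1, the matricellular protein thrombospondin 1, was at 2071, 1290, 1728 and 1161 CPM, just short of the rule with changes of -0.68 and -0.57 (adjusted p 0.410, limma).

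Of 1357 genes with a pooled change of at least 1.5-fold, 653 higher and 704 lower, the shared genes made up 17.1%. A further 83 (6.12%) moved past 1.5-fold the same way in both subsets by unequal amounts. The pooled change rested on CD74+ cells alone in 488 (36.0%; 203 higher, 285 lower) and on ACE+ cells alone in 39 (2.87%; 23 higher, 16 lower), where the weaker subset moved less than 1.2-fold in that direction or moved the other way. Of all genes tested these were 3.72% and 0.297%. The other 515 (38.0%) lay between these classes. A pooled change that rested on one subset thus mostly rested on the CD74+ pair, which holds the shallowest library.

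Cartilage genes led the changes resting on ACE+ cells. Col2a1, the main collagen of cartilage, was at 134, 520, 730 and 676 CPM, with a change of 1.95 in ACE+ cells and -0.11 in CD74+ cells. Col9a3, its partner in cartilage fibrils, was at 5.46, 26.98, 42.3 and 38.3 CPM, and Col11a1 at 19.4, 77.0, 111 and 86.8 CPM. Periostin-treated ACE+ cells thereby came closer to the levels of both CD74+ libraries without exceeding the CD74+ vehicle levels. Ltbp4, which binds latent TGF-beta to elastic fibres, was at 4.70, 15.8, 4.60 and 5.02 CPM, and Snord22, a small nucleolar RNA, at 2.38, 9.17, 6.94 and 5.65 CPM. For Snord22, 100% of the exon bases overlap another gene, so its reads cannot be separated fully from that gene.

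On the lower side, Saa3, an acute-phase serum amyloid, was at 12.9, 3.34, 22.7 and 26.01 CPM, Mcc at 6.77, 1.47, 3.95 and 5.56 CPM and Zfp619 at 8.84, 3.48, 6.70 and 6.19 CPM. In these 3 genes the CD74+ levels stayed within 1.5-fold of each other, while the ACE+ periostin level was the lowest of the 4.

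Changes resting on CD74+ cells were larger. Aldh1l1, a folate-metabolising dehydrogenase, was at 12.3 and 13.3 CPM in ACE+ cells but at 0.179 and 6.73 CPM in CD74+ cells, where the vehicle level came from 3 reads and the ratio of 37.5 had a counting interval of 12.3 to 186. Tspan32, a tetraspanin of blood cells, was at 29.9, 28.3, 5.50 and 31.4 CPM. Rhobtb3 was at 8.66, 8.78, 1.67 and 10.5 CPM and Peg10, an imprinted retrotransposon-derived gene, at 12.6, 15.1, 10.8 and 35.1 CPM. For Aldh1l1, Tspan32 and Rhobtb3 the CD74+ vehicle library stood apart as the low one of the 4.

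The genes lower in CD74+ cells alone had one low library, CD74+ periostin. Col10a1, the collagen of hypertrophic cartilage, was at 25.7, 64.6, 169 and 6.01 CPM, a change of 1.30 in ACE+ cells and -4.60 in CD74+ cells. Ctse, an intracellular aspartic protease, was at 17.4, 21.2, 12.6 and 0.359 CPM. Cd80, a costimulatory ligand for T cells, was at 9.54, 8.34, 16.6 and 1.44 CPM. Nbas was at 12.6, 13.6, 20.8 and 2.51 CPM and Cwf19l2 at 19.3, 16.9, 11.6 and 1.17 CPM, each with the lowest level in that library. None of these 17 named genes passed the pooled limma test, with adjusted p from 0.104 for Col2a1 to 0.835 for Mcc. Under other settings 2 of them passed although their subsets moved in opposite ways: Col2a1 in 7 of 13 (adjusted p 0.000424 to 0.0256) and Col10a1 in 6 of 13 (2.13e-07 to 0.00424), edgeR included for both.

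**Figure D4:**
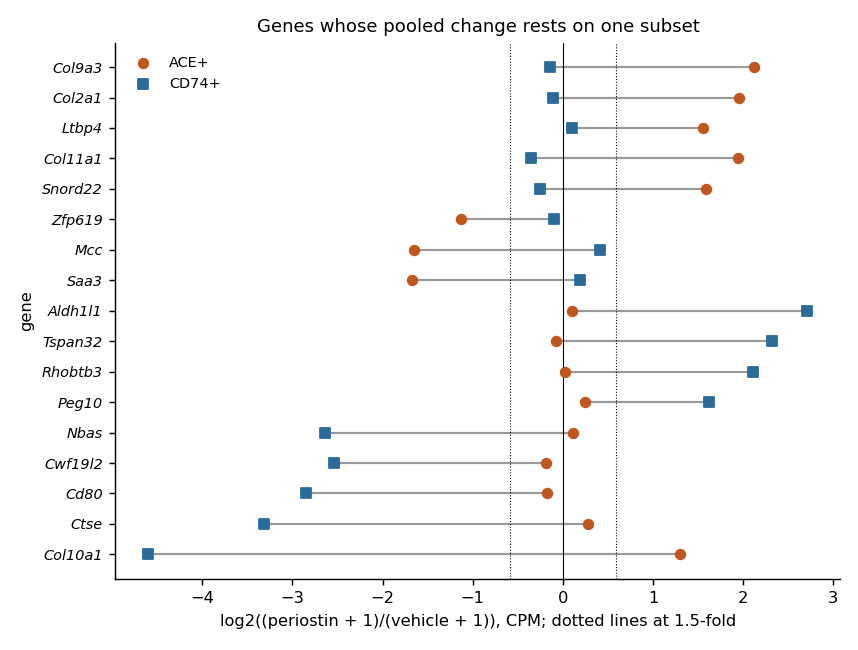
Log2 change under periostin in ACE+ cells (circles) and CD74+ cells (squares) for 17 named genes whose pooled change rested on one subset, those resting on ACE+ cells above and those resting on CD74+ cells below; dotted lines mark 1.5-fold. One symbol lies near 0 or across it in each row, most widely for Col10a1 (1.30 and -4.60).

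Gene families were then read by how many members moved the same way in both subsets, against 26.9% of all genes higher and 26.7% lower, with a median pooled change of -0.0043 over all genes. The limma test called 2 of the 805 listed genes tested over the 46 lists, 0.248% against 0.0533% of all genes, Prg2 among eosinophil, basophil and mast cell genes and Loxl2 among lysyl oxidase and elastic fibre genes, so the families are described by counts and medians. The signs of the pooled medians of the families below held under TMM scaling, scaling by library total and removal of the length trend, which moved several of them by over 1.5 times. Neutrophil markers were higher in both subsets in 10 of 15 and lower in 0, with medians of 0.22 in ACE+ cells and 0.54 in CD74+ cells. The other 5 were higher in ACE+ cells and lower in CD74+ cells. S100a8, the alarmin subunit, was at 9157, 11740, 5070 and 9038 CPM, and Mpo, myeloperoxidase, at 11.98, 34.9, 5.56 and 10.7 CPM. Prtn3, with opposite changes of 0.56 and -1.66, was at 9.28, 14.2, 4.13 and 0.628 CPM, the last from 7 reads. The same list summed to 24650 and 13460 CPM in the vehicle libraries and to more in both periostin libraries, and its part in the other families was not tested.

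Translation and respiration genes were higher in most members, by little in ACE+ cells. Of 76 cytosolic ribosomal protein genes, 52 were higher in both subsets and 1 lower, with medians of 0.06 in ACE+ cells and 0.41 in CD74+ cells. Rps28, of the small subunit, was at 330, 386, 363 and 666 CPM, and Rpl15, of the large subunit, at 252, 223, 223 and 223 CPM. Nuclear genes of oxidative phosphorylation were higher in 22 of 39 and lower in 1 (medians 0.05 and 0.39), and 13 mitochondrial DNA genes in 7 and 1 (0.07 and 0.51). In each of these families the CD74+ median was several times the ACE+ median, so the pooled medians of 0.21, 0.20 and 0.27 rested mainly on CD74+ cells.

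Gene length moved with these results. In the shortest decile of genes (median 693 bases) the median change was 0.05 in ACE+ cells and 0.37 in CD74+ cells, and in the longest (10470 bases) it was -0.04 and -0.29. Shared higher genes had a median length of 2449 bases and shared lower genes 3752, against 3634 over all genes. With the length trend removed the pooled medians were 0.12 for ribosomal, 0.095 for nuclear oxidative phosphorylation and 0.086 for mitochondrial genes. Neutrophil genes then had 0.17 in place of 0.33, core macrophage genes 0.093 in place of 0.17 and MHC class I genes 0.092 in place of 0.18. In the same way integrins had -0.095 in place of -0.18 and axon guidance genes -0.082 in place of -0.22. After this step 4 of the 7 calls were kept, and Fxyd2, Lmbrd2 and Rn7sk were not. GC content also moved with the changes, at a Spearman rho of 0.268 in ACE+ cells and 0.116 in CD74+ cells. For length, rho was -0.102 and -0.312. The median GC content was 51.8% in shared higher genes and 45.95% in shared lower ones, against 49.7% over all genes. With the GC trend removed in place of the length trend, Nup107, Lmbrd2 and Rn7sk were no longer called.

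Core macrophage genes were higher in both subsets in 11 of 24 and lower in 3, with medians of 0.15 and 0.25, while 10 moved in opposite ways. Apoe, the lipid carrier of macrophages, was at 447, 606, 560 and 790 CPM, changes of 0.44 and 0.50. Cd68, a lysosomal membrane glycoprotein, was at 576, 675, 1191 and 1327 CPM, changes of 0.23 and 0.16. Adgre1, which encodes F4/80, was lower at 54.5, 39.7, 34.9 and 19.4 CPM, and Lyve1, the hyaluronan receptor of perivascular macrophages, was a shared lower gene at 15.05, 6.62, 2.45 and 1.17 CPM.

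Cathepsins, the proteases of the lysosome, had nearly equal medians of 0.14 and 0.15, with 7 of 14 higher in both subsets and 1 lower. Their pooled median of 0.11 was 0.017 with the length trend removed. Ctsb was at 2936, 3255, 7278 and 8127 CPM, changes of 0.15 and 0.16, and Ctsl at 209, 236, 507 and 651 CPM. Antigen presentation genes of MHC class II were higher in 8 of 14 and lower in 1, with medians of 0.14 and 0.29. H2-Eb2, a class II beta chain, was a shared higher gene at 5.90, 12.2, 7.24 and 12.7 CPM, while Ciita, the class II transactivator, was at 10.0, 12.3, 7.77 and 2.78 CPM. MHC class I genes were higher in 10 of 19 and lower in 3, with medians of 0.00 and 0.26. Immediate early genes were higher in 13 of 25 and lower in 2, with medians of 0.08 and 0.18. Junb, an AP-1 subunit, was at 109, 136, 141 and 173 CPM, changes of 0.31 and 0.30, whereas Nr4a1, an orphan nuclear receptor, was at 16.6, 20.7, 7.71 and 41.7 CPM.

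Matrix genes were divided by subset. Of 16 chondrocyte genes tested, 6 were higher in both subsets and 10 were higher in ACE+ cells and lower in CD74+ cells, with medians of 1.19 and -0.21. Cnmd, a cartilage inhibitor of vessel growth, was shared at 1.13, 3.78, 5.38 and 12.9 CPM, as was Col9a1. Prg4, the joint lubricant lubricin, was at 5.83, 31.4, 99.6 and 23.1 CPM and Acan, aggrecan, at 15.9, 41.4, 117 and 65.0 CPM, each with opposite changes. The 16 chondrocyte genes summed to 303, 944, 1542 and 1145 CPM.

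Lysyl oxidase and elastic fibre genes, the cross-linking machinery to which Loxl2 belongs, were higher in both subsets in 8 of 16 and lower in 3, with medians of 0.36 and 0.10. Fbln2, a fibulin of elastic fibres, was shared at 11.2, 18.1, 5.56 and 9.33 CPM. Loxl1 and Loxl3 were at 5.395, 7.31, 2.57 and 4.93 CPM and at 12.2, 15.3, 16.5 and 26.4 CPM, each higher with periostin in its subset. Lox, the founding lysyl oxidase, was lower at 135, 114, 94.3 and 57.4 CPM.

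The integrin family includes receptors of periostin. Integrin genes were lower in both subsets in 7 of 18 and higher in 2, with medians of 0.02 and -0.32. Itgav and Itgb1, which encode chains of periostin-binding integrins, were at 117, 105, 124 and 91.0 CPM and at 448, 411, 448 and 336 CPM. Itgb3, a partner of the alpha v chain, was at 1200, 1012, 590 and 542 CPM, and Itgb5 at 152, 145, 129 and 116 CPM. The 4 chains had pooled log2 changes of -0.30, -0.27, -0.18 and -0.11, with adjusted p of 0.809 to 0.940 (limma).

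Axon guidance and neurotrophic genes were lower in both subsets in 8 of 17 and higher in 2, with medians of -0.12 and -0.24. Slit2, a secreted guidance cue, was at 9.85, 6.43, 5.98 and 0.807 CPM, and Npy, neuropeptide Y, was a shared higher gene at 5.08, 8.98, 87.2 and 162 CPM. The Npy ratios were 1.77 and 1.86, with counting intervals of 1.35 to 2.33 and 1.74 to 1.997, although its level was far higher in CD74+ cells. Angiogenic factors were lower in 8 of 22 and higher in 6 (medians -0.03 and -0.11), with the ribonuclease Ang shared at 0.565, 1.81, 1.32 and 3.95 CPM.

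Signalling and stress lists held single shared members. Il1a, an inflammatory cytokine, was at 22.2, 10.2, 4.54 and 1.61 CPM, changes of -1.04 and -1.08. Bmp7, a bone morphogenetic protein, was at 0.126, 1.23, 2.33 and 4.75 CPM, where the ACE+ vehicle level lay under the 3-read limit of 0.188 CPM. Hspa1b, an inducible HSP70 with a near-identical copy, was at 31.6, 49.6, 10.1 and 16.5 CPM. Col8a1, a short-chain collagen, was lower at 22.3, 14.3, 7.59 and 3.32 CPM. Il1a and Col8a1 were lower and Bmp7 and Hspa1b higher with periostin in each subset, with adjusted p of 0.610 to 0.786 (limma).

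**Figure D5:**
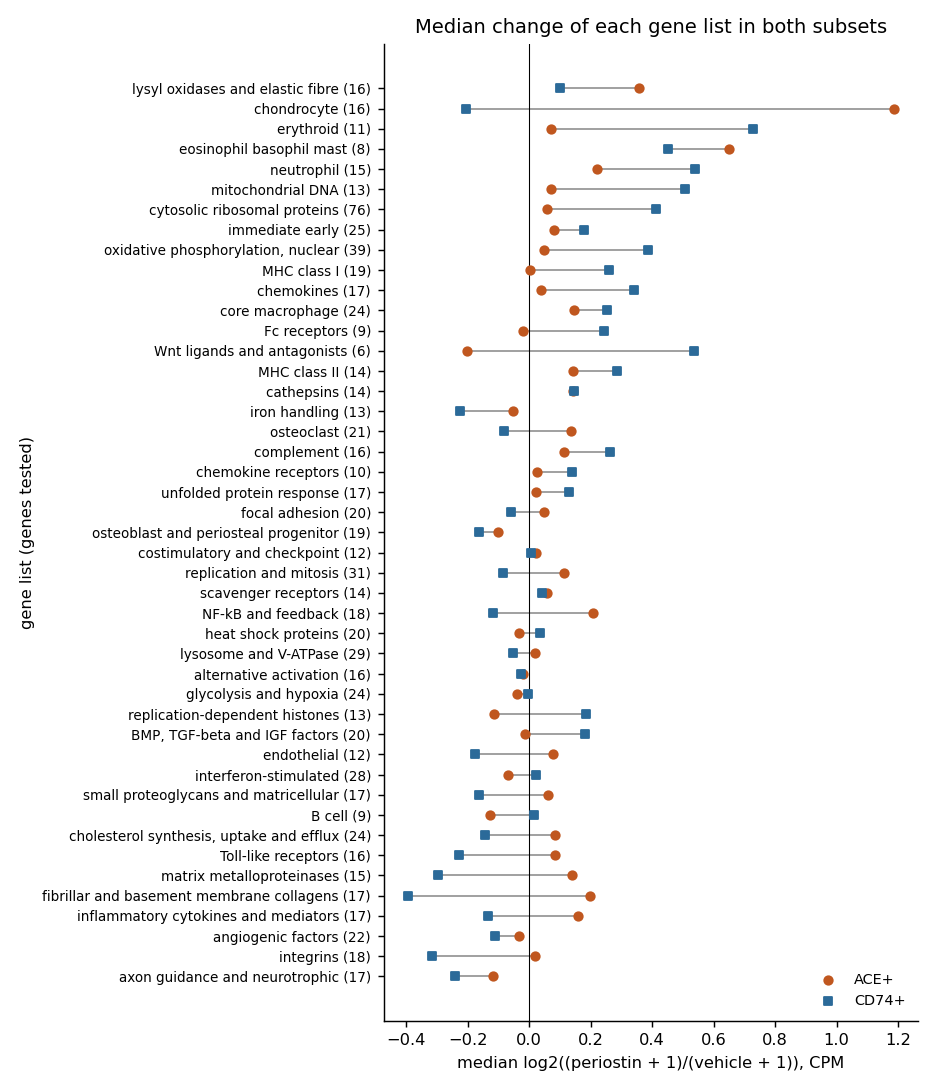
Median log2 change under periostin in ACE+ cells (circles) and CD74+ cells (squares) for each gene list with at least 5 genes tested (number tested in brackets), ordered by the pooled median. Cathepsins (0.14 and 0.15) have nearly coinciding symbols, while chondrocyte genes (1.19 and -0.21) are split across 0.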

How the data were processed

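RNA sequencing of 4 libraries was compared, grouped by the sample labels. Reads were aligned with HISAT2 to GRCm38, per the submitters' processing notes, which give no versions. The sources used here do not say how reads were counted, on which strand or with which annotation, so overlapping and antisense genes and close copies may share reads. The authors deposited for each subset a signal per gene, which is a read count over a size factor of its library, with the 4 libraries scaled together. In each column 100% of values were whole reads within 0.001 read. The authors' deposited log2 fold changes were not used. Gene identity came from the deposited identifiers, matched to GENCODE M21 for 17384 genes, with 19 symbols restored from dates.

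Levels are the signal over the mean total of the 4 columns, times 1000000 (CPM). One read was 0.0627, 0.0491, 0.0598 and 0.0897 CPM in the ACE+ pair and then the CD74+ pair, vehicle first, and the 3 reads that a count of 0 allows were 0.188, 0.147, 0.179 and 0.269 CPM. Counting intervals are exact 95% binomial ones. The main test was limma 3.58.1 with a mean-variance trend on log2(CPM + 1), with subset as a block. edgeR 4.0.16 and DESeq2 1.42.0 on the recovered reads were alternatives. The limma and edgeR fits were also run on simulated counts, where changed genes had the same fold in both subsets. They recovered 37.3% and 38.8% of genes changed 1.5-fold, with 9 and 10 false calls. The subsets' responses here had little in common, so the simulation does not measure the error of the calls above. Filters, scalings, pseudocounts and trends in length and GC content were varied. Promoter windows are from RefSeq and transcripts from GENCODE.

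Genes were named per direction as up to 10 shared genes by the weaker change, the limma calls and up to 5 resting on each subset. These were at least 5 CPM in the higher library of each subset, predicted names left out. Of each of 46 gene lists, the shared members and the extremes among genes tested were also taken. The 5 CPM limit was not applied to list members, such as Bmp7 and Ang, or to the sort and ligand genes. One gene that this rule names is not reported here. Further members were named to describe a list after their values were seen. The comparison, lists and rules were chosen with earlier results of these data known. Nothing in the labels says whether libraries came from separate animals.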

Additional observations from a re-analysis of the deposited data

Results flagged for a closer look

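Of the genes named in the report that moved at least 1.2-fold in opposite ways in the subsets under periostin, 9 are given here. Prtn3, described with the neutrophil markers, was another, with log2 changes of 0.56 in ACE+ cells and -1.66 in CD74+ cells. With 1 pair of libraries in each subset, the difference was not tested. Others, such as Col2a1, had opposite signs with a smaller change in one subset. The cartilage genes Col11a1, Prg4 and Acan had log2 changes of 1.94, 2.25 and 1.33 in the ACE+ pair, against -0.35, -2.06 and -0.83 in the CD74+ pair. Col10a1 had 1.30 and -4.60, and its CD74+ periostin level came from 67 reads against 2821 in CD74+ vehicle. Ctse had 0.28 and -3.32, with 4 reads in CD74+ periostin. Ciita had 0.27 and -1.21, and Prg3 had 1.39 and -0.83, with 3 reads in each of its lower libraries. Mcc had -1.65 and 0.41. Cx3cr1, a gene of the sort, had 0.34 and -0.31.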

How the results depend on the processing

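The number of limma calls (4 higher, 3 lower) varied with the setting. It was 2 and 0 with a pseudocount of 0.1 CPM and 14 and 10 with 5 CPM, 0 and 0 with no filter, 7 and 11 with at least 5 CPM, 7 and 10 with TMM scaling, 6 and 13 with scaling by library total, 3 and 2 with the length trend removed, 4 and 1 with the GC trend removed, and 8 and 17 over genes in either table. It was 8 and 6 in edgeR, 2 and 0 in DESeq2, and 0 and 0 without the subset block or without the trend in the prior. The prior had 62.9 degrees of freedom as reported, 4.26 without the trend, 4.04 without the block and 463 with at least 5 CPM. It was infinite with a pseudocount of 5 CPM, both other scalings and genes in either table, where the spread of a gene itself counts for nothing. Over these settings the adjusted p of Prg2 was 0.000107 to 1.

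The shared counts (148 higher, 84 lower) were 13 and 15 with a pseudocount of 5 CPM, 48 and 41 with at least 5 CPM, 17 and 6 at 2-fold in each subset, and 130 lower over genes in either table. Counts resting on one subset (226 higher, 301 lower) were 396 and 464 with a pseudocount of 0.1 CPM and 45 and 76 with 5 CPM, 72 higher with at least 5 CPM, 486 lower over genes in either table, and 198 lower with the weaker subset under 1.1-fold. Over genes in either table, the genes in 1 table only added 7 shared higher and 46 shared lower genes. The cause of the other differences was not tested. Of 414 list medians, 38 had another sign than reported, in 19 lists, and of 1300 pooled changes of named genes 4, in 3 genes. The fit as reported pairs the libraries by subset, and the labels give no replicate numbers to pair by. The median level of shared genes was 3.66 CPM for higher and 4.55 CPM for lower ones, against 26.7 CPM over all genes.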

Other observations

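Small nuclear RNAs were not among the gene lists and were looked at after their values were seen. Of 9 genes with the GENCODE biotype snRNA that were tested, 8 were higher with periostin in both subsets and 1 lower, and they summed to 15.8, 50.3, 17.7 and 35.2 CPM in the ACE+ pair and then the CD74+ pair, vehicle first in each. Over all genes tested 26.9% were higher in both. Limma called 0 of the 9, with 4 at an unadjusted p of at most 0.05, against 6.82% of all genes, and with a pseudocount of 5 CPM it called Gm24407 (adjusted p 0.0339) and Gm24265 (0.0337). Rnu12, the U12 RNA of the minor spliceosome, was at 0.627, 4.81, 0.718 and 2.60 CPM, and Rnu11, the U11 RNA of the same machine, at 0.816, 3.58, 2.03 and 4.67 CPM. For Rnu11, 100% of the exon bases overlap another gene. Gm24407 was at 1.88, 13.0, 0.538 and 3.05 CPM and Gm24265 at 2.32, 14.3, 1.73 and 5.47 CPM. The latter 2 are 141 bases long each and identical at 139 of them, so reads cannot be assigned between them with certainty. Their GENCODE transcripts on GRCm38 follow with the differing bases in capitals.
Gm24407, chr5:115490254-115490394, plus strand: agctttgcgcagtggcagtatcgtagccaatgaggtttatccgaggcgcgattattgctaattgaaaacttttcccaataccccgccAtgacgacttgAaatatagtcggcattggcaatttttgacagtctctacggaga
Gm24265, chr5:115489459-115489599, plus strand: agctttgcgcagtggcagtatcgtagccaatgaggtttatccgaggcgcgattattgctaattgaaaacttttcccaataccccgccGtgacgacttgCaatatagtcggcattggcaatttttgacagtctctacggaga

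Among other short RNAs, Rny3 and Rmrp, which were not in the gene lists, moved the same way by unequal amounts. The larger classes of short RNA were mixed. Of 75 snoRNA genes tested, 22 were higher in both subsets and 15 lower, and of 96 miRNA genes 20 and 23. Over all genes tested these shares were 26.9% and 26.7%. Rny3, the neighbour of Rny1 on chromosome 6, was at 6.21, 26.7, 3.65 and 6.46 CPM, and Rmrp, the RNA of RNase MRP, at 4.52, 8.24, 6.995 and 20.4 CPM, with 100% of its exon bases overlapping another gene. Vaultrc5, a vault RNA, was at 1.76, 9.27, 2.15 and 2.51 CPM, a change in ACE+ cells alone. These RNAs are shorter than the median of the shortest decile of genes, 693 bases, in which the median change was 0.05 in ACE+ cells and 0.37 in CD74+ cells.

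Genes in 1 table only were worked out from the deposited mean. Of 612 that passed the filter, 527 had 0 reads in CD74+ periostin, and the 4 called among them, each lower, all had 0 reads there.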
